A study of Mus musculus with 10 samples.

Results

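The Cyp2c genes of the mouse encode cytochromes P450 of the endoplasmic reticulum, most abundant in the liver, and 10 of them are described here in livers that lack Ndrg3. The 10 were chosen by gene symbol, Cyp2c29, Cyp2c37, Cyp2c38, Cyp2c39, Cyp2c40, Cyp2c50, Cyp2c54, Cyp2c67, Cyp2c68 and Cyp2c70, and all 10 were found among the 24052 symbols counted. P450 enzymes of this family take electrons from the reductase encoded by Por, carry a heme, and insert oxygen into drugs, arachidonic acid, linoleic acid, steroids and bile acids. Several mouse members make epoxyeicosatrienoic acids, signalling lipids that soluble epoxide hydrolase (Ephx2) removes, and Cyp2c70 makes muricholic acids, the bile acids typical of rodents. Their transcription in hepatocytes is known to depend on nuclear receptors such as HNF4A (Hnf4a) and CAR (Nr1i3), on C/EBP factors and on growth hormone.

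RNA was sequenced from 5 wild-type (WT) livers and from 5 livers of Ndrg3 LKO mice, which carried an exon 4 deletion of Ndrg3 made by Cre recombinase under the albumin promoter, which is active in hepatocytes and not in the endothelial and immune cells of the liver. All mice had a C57BL/6 background and were fed ad libitum, and the sources put their age at 8 to 10 weeks (methods) or 10 to 12 weeks (a legend). Each liver gave 1 library with between 20872262 and 24747870 counts on genes in WT and between 23474693 and 30450057 in Ndrg3 LKO. Every liver held at least 991 counts of the Y-linked gene Ddx3y and at most 2 counts of Xist, the pattern of male tissue. Levels below are in CPM, counts scaled to a common library total after the TMM factors of edgeR were applied, and 3 counts, taken as the floor, correspond to between 0.0727 and 0.179 CPM.

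Ndrg3 itself, on the minus strand of chromosome 2 of NCBIM37 (mm9), was measured at 17.8, 17.7, 15.9, 19.1 and 21.9 CPM in WT replicates 1 to 5 and at 7.07, 8.05, 9.16, 7.78 and 8.25 CPM in Ndrg3 LKO replicates 1 to 5. Every Ndrg3 LKO liver lay below every WT liver, with a log2 fold change of -1.20 (SE 0.13, edgeR adjusted p = 3.9e-05). The values cover the whole gene, and exon 4 was not measured alone. One library stood apart from its group. On the first principal component of log2 CPM of the genes tested, which held 68.7% of the variance, WT livers lay between -49.9 and -43.0 and Ndrg3 LKO replicates 1 to 4 between 51.1 and 56.6, whereas Ndrg3 LKO replicate 5 lay at 14.1. Its Alb level was 107850 CPM, beside 20929 to 26338 CPM in the other Ndrg3 LKO livers. Changes of the Cyp2c genes are therefore given with and without this liver. Legends of the study's metabolome and RNA figures give 5 WT and 4 Ndrg3 LKO livers and do not name a liver left out.

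Among the 10 Cyp2c genes, 6 were lower and 1 was higher in Ndrg3 LKO livers, and 3 did not pass the test (edgeR's quasi-likelihood test, Benjamini-Hochberg adjustment over all 11208 genes tested, threshold 0.05). Over all genes tested, 23.0% were called lower and 25.6% higher. All 10 Cyp2c genes passed the filter on low counts of at least 1 CPM in at least 5 livers. The median log2 fold change over the 10 was -2.10, beside 0.03 over all genes tested. In the same 6 genes every Ndrg3 LKO liver lay below every WT liver, as did 15.9% of the genes tested, and in 1 gene every Ndrg3 LKO liver lay above, as did 15.6%. The falls had a wide range. Cyp2c54, Cyp2c50, Cyp2c37, Cyp2c70 and Cyp2c67 were between 8.50-fold and 53.9-fold lower, whereas Cyp2c29 was 1.75-fold lower and Cyp2c68 was 1.41-fold higher. Only 130 of the genes tested, or 1.16%, had a fold change as low as that of Cyp2c67 or lower, and these 5 Cyp2c genes were among them. Without Ndrg3 LKO replicate 5, 7 Cyp2c genes were called lower, including Cyp2c40, and none higher, beside 27.2% of 11446 genes called lower. The log2 fold change without this liver was -5.34 for Cyp2c50, -3.58 for Cyp2c70, -3.16 for Cyp2c67, -0.91 for Cyp2c29, -0.98 for Cyp2c39, -0.54 for Cyp2c38 and 0.40 for Cyp2c68. In whole liver, fewer cells of a type and less RNA per cell cannot be told apart.

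**Figure D1:**
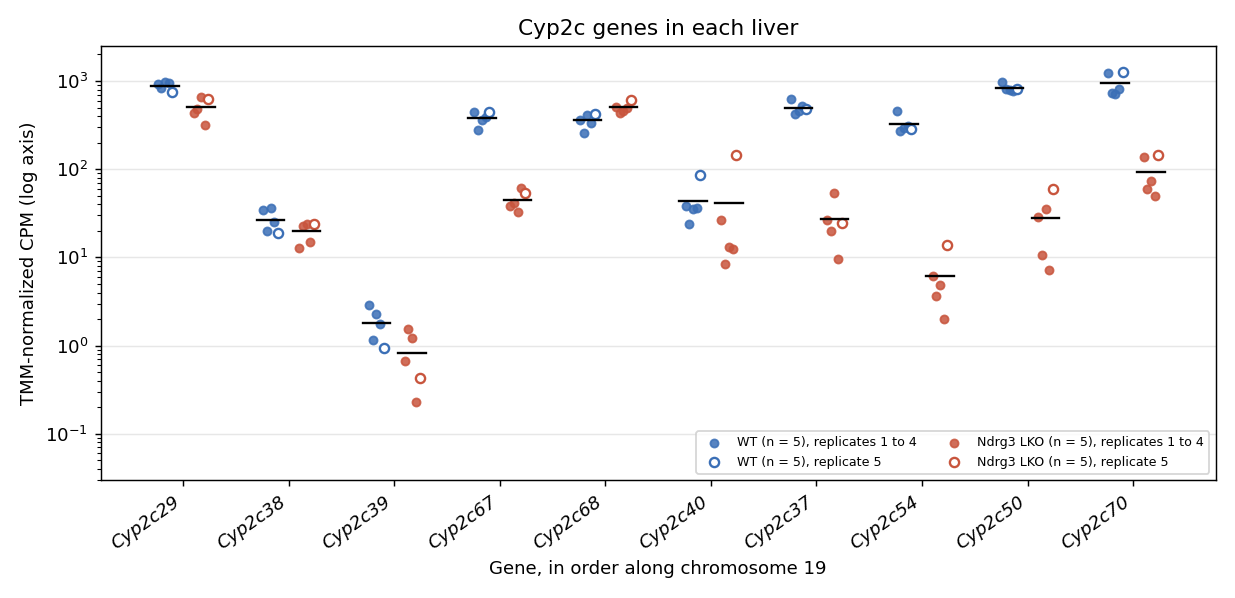
TMM-normalized CPM (log axis) of the 10 Cyp2c genes in each of 5 WT and 5 Ndrg3 LKO livers, in their order along chromosome 19, with black lines for group means and open points for replicate 5. The Ndrg3 LKO points lie apart from and below the WT points for Cyp2c29, Cyp2c67, Cyp2c37, Cyp2c54, Cyp2c50 and Cyp2c70 and above them for Cyp2c68, and Cyp2c40 is high in replicate 5 of both groups.

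The 10 genes lie within 0.946 Mb of chromosome 19 of NCBIM37, at chr19:39315441-40261823, with 4 on the plus strand and 6 on the minus strand. Cyp2c67 lies at chr19:39683332-39723541 and Cyp2c68 at chr19:39763324-39815544, both on the minus strand. Cyp2c37 (chr19:40066909-40086738, plus strand), Cyp2c54 (chr19:40112431-40148301, minus strand), Cyp2c50 (chr19:40164178-40188440, plus strand) and Cyp2c70 (chr19:40227843-40261823, minus strand) follow one another at the far end. None of the 10 overlaps another annotated gene. By coding sequence they fall into close relatives. Cyp2c37, Cyp2c50 and Cyp2c54 share between 95.1% and 96.1% of their coding bases, Cyp2c40, Cyp2c67 and Cyp2c68 between 97.2% and 98.1%, and Cyp2c29, Cyp2c38 and Cyp2c39 between 89.1% and 94.2%, while Cyp2c70 shares 68.1% with Cyp2c29. This matters for the counts, since reads of 100 bases can match more than 1 gene. Windows of 100 bases were searched in protein-coding transcripts only, not in pseudogenes or the rest of the genome. Of these windows, none in Cyp2c29, Cyp2c38, Cyp2c39 or Cyp2c70 also occurred in a protein-coding transcript of another gene. The share was 4.42% in Cyp2c37, 8.87% in Cyp2c50 and 7.66% in Cyp2c54, and it was higher in Cyp2c67 (23.7%), Cyp2c68 (19.8%) and Cyp2c40 (36.6%). Counts of the last 3 are thus less certain. A read from such a window cannot be placed on 1 gene by its own sequence, only through the other read of its pair.

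In WT livers the order of levels per kb of exon ran from Cyp2c70 to Cyp2c39. Cyp2c70 had 481 ± 138 (SD, n = 5 livers) CPM per kb and Cyp2c29 had 457 ± 49.0, with overlapping ranges. A group of 5 genes followed, Cyp2c50 at 284 ± 26.6, Cyp2c37 at 273 ± 41.5, Cyp2c67 at 222 ± 39.5, Cyp2c68 at 207 ± 39.3 and Cyp2c54 at 184 ± 44.3 CPM per kb, and each overlapped its neighbour in this order. Cyp2c50 was divided by 2.918 kb, the joined exons of 3 annotated transcripts, and Cyp2c29 by 1.939 kb. Their protein-coding transcripts held similar numbers of windows of 100 bases, 1816 for Cyp2c50 and 1840 for Cyp2c29. In CPM not divided by length, their WT means were 829 and 886, with overlapping ranges. The place of Cyp2c50 in this order thus rests on its annotated length. Cyp2c40 at 21.5 ± 11.7 and Cyp2c38 at 9.36 ± 2.78 CPM per kb overlapped each other and lay below these, and Cyp2c39 at 0.992 ± 0.433 CPM per kb lay below both. In Ndrg3 LKO livers the order changed. Cyp2c68 had 291 ± 41.0 (SD, n = 5 livers) and Cyp2c29 261 ± 72.8 CPM per kb, with overlapping ranges, and every other Cyp2c gene lay below both, from Cyp2c70 at 47.1 ± 22.9 to Cyp2c39 at 0.449 ± 0.302 CPM per kb. From Cyp2c70 down to Cyp2c54, each gene in this order overlapped the next.

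Cyp2c54, Cyp2c50 and Cyp2c37, which lie side by side and whose enzymes oxidise arachidonic and linoleic acid, had the largest falls. Cyp2c54 was at 463, 274, 296, 308 and 284 CPM in WT replicates 1 to 5 and at 6.18, 3.68, 4.84, 1.99 and 13.8 CPM in Ndrg3 LKO replicates 1 to 5. The lowest of these Ndrg3 LKO values rests on 70 counts, so the gene was detected in all 5 livers. Its log2 fold change was -5.75 (SE 0.48, edgeR adjusted p = 8.9e-06), the lowest of the 10 genes. Without Ndrg3 LKO replicate 5, the highest of its group, it was -6.29. Cyp2c50 was at 965, 803, 792, 772 and 814 CPM in WT and at 28.9, 10.7, 35.6, 7.12 and 59.1 CPM in Ndrg3 LKO livers. Relative to their mean, the Ndrg3 LKO values (28.3 ± 21.0, SD, n = 5) differed among themselves by more than the WT values (829 ± 77.5), with replicate 5 again highest, and all lay below WT (log2 fold change -4.88, SE 0.53, edgeR adjusted p = 4.0e-05). Cyp2c37 was at 622, 421, 462, 515 and 479.7 CPM in WT and at 26.7, 20.1, 54.0, 9.52 and 24.9 CPM in Ndrg3 LKO livers. Here replicate 3 was highest among the Ndrg3 LKO livers and replicate 4 lowest, as replicate 4 was for Cyp2c50 and Cyp2c54 too. The log2 fold change of Cyp2c37 was -4.21 (SE 0.39, edgeR adjusted p = 1.7e-05), and -4.19 without Ndrg3 LKO replicate 5.

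Cyp2c70, the muricholic acid enzyme, lies at the end of the group next to Cyp2c50. It was at 1218, 726, 721, 818 and 1276 CPM in WT and at 137, 59.2, 74.3, 49.4 and 146 CPM in Ndrg3 LKO livers. Replicates 1 and 5 were the highest in both groups, and the groups did not overlap. Its log2 fold change was -3.35 (SE 0.35, edgeR adjusted p = 3.2e-05). None of its windows of 100 bases occurred in a protein-coding transcript of another gene.

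Cyp2c67, Cyp2c68 and Cyp2c40, neighbours on the minus strand with nearly the same coding sequence, took different courses. Cyp2c67 was at 444, 279, 363, 395 and 444 CPM in WT and at 38.2, 41.5, 32.7, 60.8 and 53.4 CPM in Ndrg3 LKO livers. The groups did not overlap, and its log2 fold change was -3.09 (SE 0.21, edgeR adjusted p = 2.6e-06), with the smallest SE of the 5 genes with large falls. Cyp2c68 was at 366, 255, 407, 333 and 426 CPM in WT and at 509.7, 431, 461, 495 and 616 CPM in Ndrg3 LKO livers. The groups were close, since the lowest Ndrg3 LKO liver at 431 CPM lay just above the highest WT liver at 426 CPM. The log2 fold change was 0.49 (SE 0.17, edgeR adjusted p = 0.031), and the call was lost on leaving out WT replicate 1, 2 or 4 or Ndrg3 LKO replicate 1, 4 or 5, with adjusted p between 0.051 and 0.087.

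The ratio of Cyp2c68 to Cyp2c67 needs no scaling between livers. It was 0.823, 0.913, 1.12, 0.841 and 0.960 counts of Cyp2c68 per count of Cyp2c67 in WT, and 13.3, 10.4, 14.1, 8.14 and 11.5 in Ndrg3 LKO livers. Every Ndrg3 LKO liver, replicate 5 included, thus lay several-fold above every WT liver. On the log2 scale, with 0.5 added to each count, the ratio of Cyp2c67 to Cyp2c68 was 3.61 lower in Ndrg3 LKO livers (log2 difference -3.61, 2-sided exact permutation test p = 0.0079, adjusted p = 0.012 over 45 pairs), and 0.0079 is the smallest p that 5 livers against 5 can give.

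Cyp2c40 followed neither. It was at 38.1, 24.1, 35.7, 36.2 and 85.2 CPM in WT and at 26.3, 8.41, 12.9978, 12.6 and 147 CPM in Ndrg3 LKO livers. Replicate 5 was highest in both groups, and Ndrg3 LKO replicate 5 lay above all other livers. Over 10 livers the log2 fold change was -0.09 (SE 0.71, edgeR adjusted p = 0.93; log2 fold change 0.19 with library size alone), and without Ndrg3 LKO replicate 5 it was -1.55 (edgeR adjusted p = 0.0053), so this one library decided the call. Cyp2c69, the annotated gene between Cyp2c40 and Cyp2c37 and the one that shares most windows with Cyp2c40, was also highest in replicate 5 of both groups, at a lower level. It was at 11.6, 8.01, 12.2, 9.92 and 32.1 CPM in WT and at 12.1, 4.87, 9.16, 9.12 and 43.9 CPM in Ndrg3 LKO livers. Its log2 fold change of 0.10 (SE 0.56, edgeR adjusted p = 0.90) turned negative without Ndrg3 LKO replicate 5 (-0.75, edgeR adjusted p = 0.12). Unlike Cyp2c40, Cyp2c69 was not called there.

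Cyp2c29, Cyp2c38 and Cyp2c39 lie together at the other end of the group. Cyp2c29, an epoxygenase of arachidonic acid that phenobarbital-like compounds are known to induce, was at 925, 834, 979.7, 947 and 747 CPM in WT and at 436, 485, 661, 319 and 630.0 CPM in Ndrg3 LKO livers. The groups did not overlap, but they lay much nearer to each other than those of Cyp2c50, whose WT mean was 829 CPM beside 886 CPM for Cyp2c29. Its log2 fold change was -0.81 (SE 0.20, edgeR adjusted p = 0.0065), and with library size alone as the scaling it was -0.30 (edgeR adjusted p = 0.21) and no longer passed. Cyp2c38, another epoxygenase, was at 34.1, 20.02, 36.2, 25.3 and 18.7 CPM in WT and at 12.9, 22.6, 24.2, 14.8 and 24.0 CPM in Ndrg3 LKO livers. The groups overlapped, and the log2 fold change of -0.45 (SE 0.24, edgeR adjusted p = 0.14) turned to 0.08 with library size alone. Cyp2c39, whose enzyme hydroxylates retinoic acid, was the least abundant at 2.86, 1.17, 2.28, 1.75 and 0.952 CPM in WT and 0.661, 1.53, 1.24, 0.228 and 0.424 CPM in Ndrg3 LKO livers, and its lowest value rests on 8 counts. The groups overlapped, and its log2 fold change was -1.11 (SE 0.47, edgeR adjusted p = 0.068). It was called on leaving out Ndrg3 LKO replicate 2 (log2 fold change -1.46, adjusted p = 0.024).

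**Figure D2:**
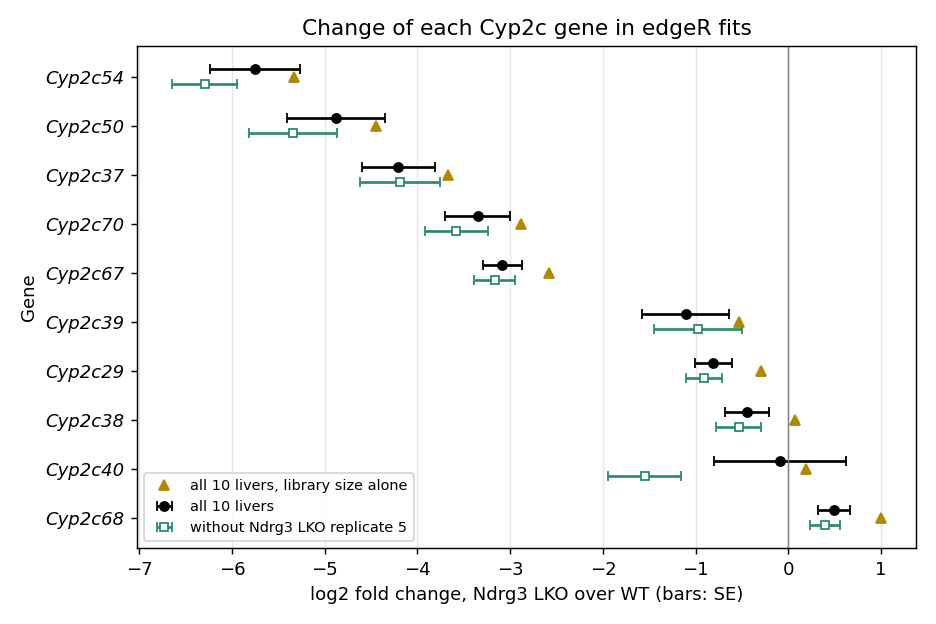
log2 fold change of each Cyp2c gene (Ndrg3 LKO over WT, bars show SE) from edgeR fits of all 10 livers, of 9 livers without Ndrg3 LKO replicate 5, and of all 10 livers scaled by library size alone, shown without bars. Cyp2c54 is lowest at -5.75, Cyp2c68 is highest at 0.49, Cyp2c40 moves from -0.09 to -1.55 without Ndrg3 LKO replicate 5, and Cyp2c38 and Cyp2c40 lie on the other side of 0 with library size alone.

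Whether the Cyp2c genes changed by different amounts was tested on the ratio of counts within each liver, for all 45 pairs. In 33 pairs the change of the ratio passed an adjusted p of 0.05 (2-sided exact permutation test), and in 35 without Ndrg3 LKO replicate 5. The largest difference was between Cyp2c54 and Cyp2c68 (log2 difference -6.50, adjusted p = 0.012). Each of Cyp2c37, Cyp2c50, Cyp2c54 and Cyp2c70 changed more than each of Cyp2c29, Cyp2c38, Cyp2c39, Cyp2c40 and Cyp2c68. Even among the close relatives Cyp2c50 and Cyp2c54 the ratio shifted, from 1.38 ± 0.20 (SD) in WT to 2.11 ± 0.50 in Ndrg3 LKO livers on the log2 scale (adjusted p = 0.023 in the exact permutation test, n = 5 livers a group). The ratio of Cyp2c37 to Cyp2c50 moved from -0.74 ± 0.14 to 0.11 ± 0.84 and did not pass (adjusted p = 0.085 in the exact permutation test). Nor did Cyp2c37 against Cyp2c67 (log2 difference -1.31, adjusted p = 0.061) or Cyp2c70 (-0.97, adjusted p = 0.092), or Cyp2c39 against Cyp2c67 (1.78, adjusted p = 0.061). The same held for Cyp2c67 against Cyp2c70 (log2 difference 0.34, adjusted p = 0.48), Cyp2c29 against Cyp2c38 (log2 difference -0.41, adjusted p = 0.069) or Cyp2c29 against Cyp2c40 (log2 difference -0.0017, adjusted p = 1.0).

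**Figure D3:**
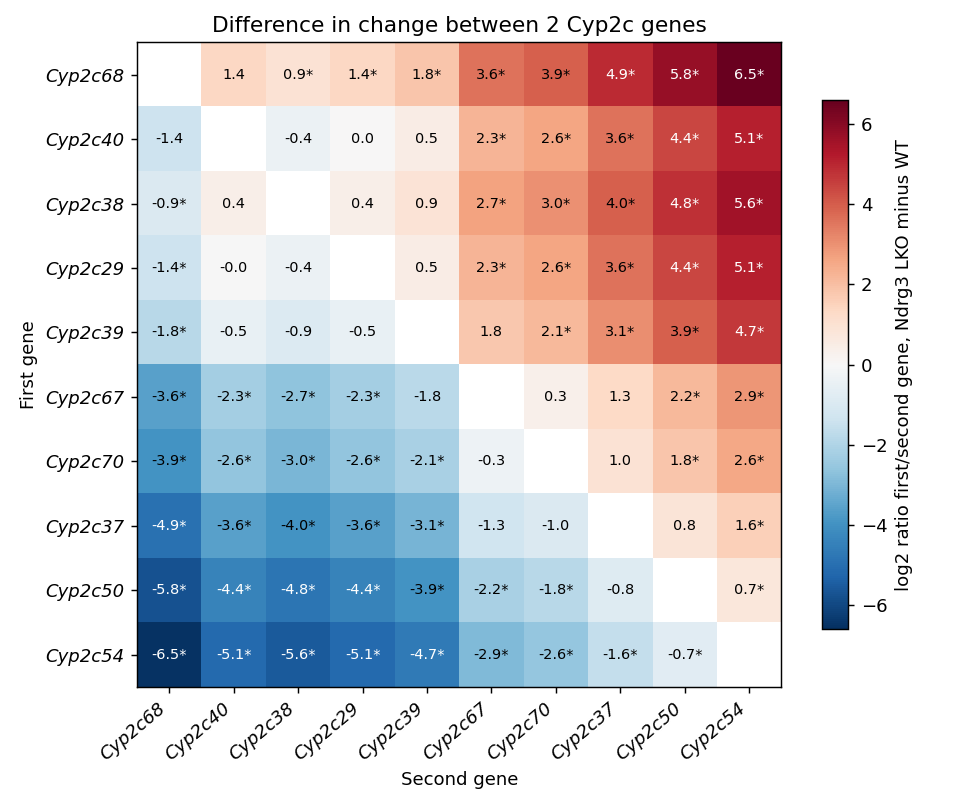
Change in the log2 ratio of counts of the first gene (rows) to the second gene (columns), Ndrg3 LKO minus WT, with a star where the exact permutation test passed an adjusted p of 0.05 over 45 pairs. The upper right block, where the 5 genes with large falls are second and the other 5 first, holds values from 1.78 to 6.50, and pairs within the 5 genes with large falls differ by between 0.34 and 2.89.

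Summed over the 10 genes, the Cyp2c level was 4308 ± 544 (SD, n = 5) CPM in WT and 1271 ± 289 CPM in Ndrg3 LKO livers, a 3.39-fold fall of the mean. The WT livers lay between 3638 and 5078 CPM and the Ndrg3 LKO livers between 970.4 and 1715 CPM, so that the groups did not overlap. As a share of all counts the 10 genes made up 0.360% ± 0.0418 in WT and 0.150% ± 0.0204 in Ndrg3 LKO livers. The make-up of this sum turned over. In WT, Cyp2c70 held 21.8% ± 4.10 (SD, n = 5) of the counts, Cyp2c29 20.8% ± 3.35, Cyp2c50 19.4% ± 1.62 and Cyp2c37 11.6% ± 0.777. In Ndrg3 LKO livers Cyp2c68 held 40.4% ± 6.67, against 8.30% ± 1.29 in WT, and Cyp2c29 held 39.7% ± 6.62. Together Cyp2c29 and Cyp2c68 rose from between 25.4% and 33.9% of the counts in the WT livers to between 72.7% and 84.5% in the Ndrg3 LKO livers. Cyp2c70, Cyp2c50, Cyp2c37, Cyp2c67 and Cyp2c54 went together from 69.2% ± 3.53 to 15.5% ± 2.88. Cyp2c40 held 8.56% in Ndrg3 LKO replicate 5 and between 0.776% and 2.15% in the other Ndrg3 LKO livers. These shares are descriptions and were not tested.

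**Figure D4:**
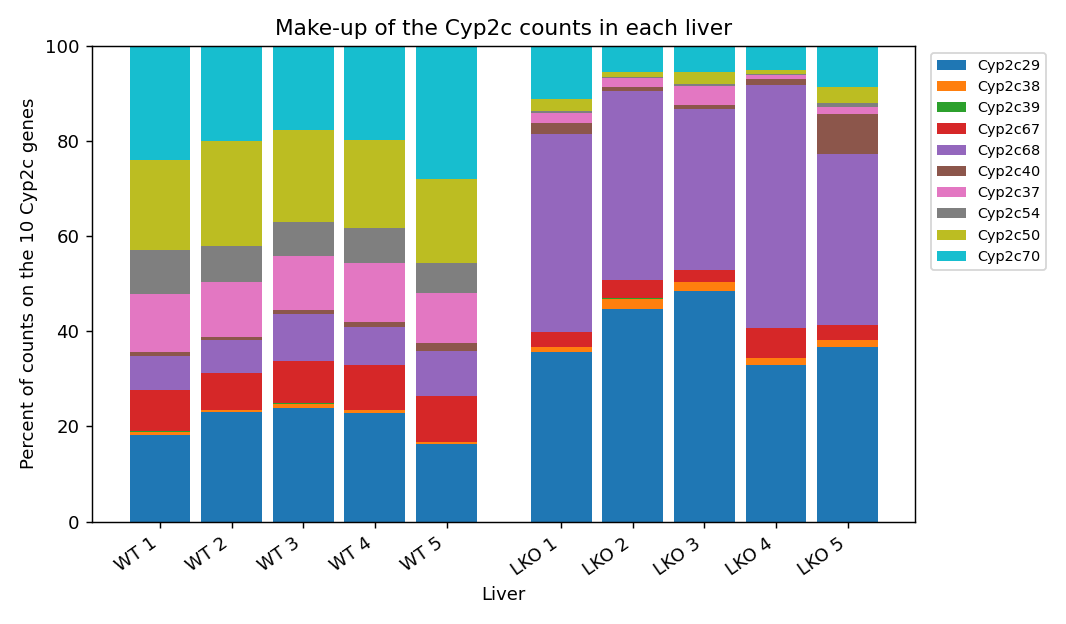
Share of each gene in the counts summed over the 10 Cyp2c genes (percent, stacked to 100), one bar per liver. Cyp2c29 and Cyp2c68 together fill between 72.7% and 84.5% of the bars of the Ndrg3 LKO livers and between 25.4% and 33.9% of those of the WT livers.

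Upstream sequences were compared because close relatives changed so differently. RefSeq starts on GRCm38.p6 were found for 9 of the 10 genes. The 150 bases that end just before the start are shown 5′ to 3′ on the transcribed strand for Cyp2c67 and Cyp2c68, near copies with different changes, for Cyp2c37 and Cyp2c50, near copies that both fell, and for Cyp2c70, the member least like the others. Capitals mark the letters CAAAGT, the core of the HNF4 recognition sequence. They lie at chr19:39649043-39649192 (minus strand), chr19:39741102-39741251 (minus strand), chr19:39992274-39992423 (plus strand), chr19:40089529-40089678 (plus strand) and chr19:40187287-40187436 (minus strand), in this order.
Cyp2c67: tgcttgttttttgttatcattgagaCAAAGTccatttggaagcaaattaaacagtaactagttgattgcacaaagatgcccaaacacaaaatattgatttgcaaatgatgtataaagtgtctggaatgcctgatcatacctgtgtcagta
Cyp2c68: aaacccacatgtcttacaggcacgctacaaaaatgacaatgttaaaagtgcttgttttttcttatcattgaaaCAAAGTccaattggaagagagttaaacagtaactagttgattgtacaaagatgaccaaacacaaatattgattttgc
Cyp2c37: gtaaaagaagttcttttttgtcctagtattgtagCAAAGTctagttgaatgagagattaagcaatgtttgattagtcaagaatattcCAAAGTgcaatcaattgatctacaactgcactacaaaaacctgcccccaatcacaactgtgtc
Cyp2c50: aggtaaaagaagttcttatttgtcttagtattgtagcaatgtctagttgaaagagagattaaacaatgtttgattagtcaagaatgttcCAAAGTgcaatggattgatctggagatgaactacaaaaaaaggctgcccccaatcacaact
Cyp2c70: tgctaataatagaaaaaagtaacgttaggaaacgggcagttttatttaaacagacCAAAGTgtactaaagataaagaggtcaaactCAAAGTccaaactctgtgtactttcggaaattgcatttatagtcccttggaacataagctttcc

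Searched on both strands over 250 bases before the start, CAAAGT occurred in all 9 genes with a start, beside 12.6% of 32851 promoters of the same length. Over 102 aligned upstream bases Cyp2c67 and Cyp2c68 were 92.2% identical, and over 145 aligned bases Cyp2c37 and Cyp2c50 were 90.3% identical. The letters TATAAA on the transcribed strand were found in Cyp2c29, Cyp2c38 and Cyp2c67, beside 7.59% of promoters. The annotated starts of Cyp2c67, Cyp2c68 and Cyp2c40 differ in place. Counted from the start, the shared CAAAGT begins at -125 in Cyp2c67, -77 in Cyp2c68 and -45 in Cyp2c40. The stretch with TATAAA in Cyp2c67, at -40, thus lies past the windows of Cyp2c68 and Cyp2c40 and was not searched there. A STAT5 sequence, TTCNNNGAA on either strand, occurred in none of the 9, beside 7.02% of promoters. TTGCNNAA, letters bound by C/EBP factors, occurred on either strand in Cyp2c37 and Cyp2c67, beside 9.56%. The nuclear receptor half-site AGGTCA, on either strand, occurred in Cyp2c29, Cyp2c70 and 1 of the 2 starts of Cyp2c39, beside 14.0% of promoters. The HNF1 half-site GTTAAT, on either strand, occurred in Cyp2c40 (at -191) and Cyp2c68 (at -224), beside 6.43%. Judged by the shared CAAAGT, the matching place in Cyp2c67 lies before the 250 bases searched, so it was not examined. These matches describe letters in a window and are no measure of binding.

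Genes around and related to the 10 were read from the same fit. Cyp2c55, which lies before Cyp2c29, went the other way, from 3.72 ± 0.891 (SD, n = 5) CPM in WT to 20.7 ± 9.69 CPM in Ndrg3 LKO livers (log2 fold change 2.48, SE 0.35, edgeR adjusted p = 0.00021). It overlaps an annotated gene on the opposite strand, and the strand setting of the counting is not given in the sources used here. Cyp2c44, outside the group on the same chromosome, fell from 297 ± 82.6 to 38.3 ± 29.3 CPM (log2 fold change -2.96, SE 0.43, edgeR adjusted p = 0.00027; -3.55 without Ndrg3 LKO replicate 5). Cyp2c65, Cyp2c66 and Cyp2c53-ps did not pass the filter. Genes tested near each end of the group, chosen after their values were seen, are given for comparison. Before it, Hells was higher (log2 fold change 2.11) and Noc3l was higher (0.57), and Rbp4, Plce1 and Tbc1d12 did not pass. After it, Entpd1 was higher (1.74), and Pdlim1, Ccnj and Zfp518a did not pass.

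The machinery that P450 enzymes depend on had smaller changes than the 5 Cyp2c genes with large falls, but not than every Cyp2c gene. Alas1, for one, changed more (log2 fold change -1.67) than Cyp2c29 (-0.81). These differences were not tested. Of 3 genes for electron donors, Por fell (log2 fold change -0.49, SE 0.15, edgeR adjusted p = 0.021; log2 fold change 0.04 with library size alone), Cyb5r3 fell (-0.73, SE 0.17, adjusted p = 0.0041; -0.24 with library size alone, adjusted p = 0.14), and Cyb5b did not pass. Por lost its call without Ndrg3 LKO replicate 1 or 4. Of 12 genes of heme synthesis and breakdown, 2 rose and 2 fell, a smaller share each way than the 25.6% higher and 23.0% lower of all genes tested, and 9 were called with library size alone. Alas1, the rate-limiting enzyme of heme synthesis, went from 626 ± 202 to 197 ± 69.3 CPM (log2 fold change -1.67, SE 0.29, edgeR adjusted p = 0.00078), and Fech, which inserts the iron, fell by 0.67 on the log2 scale (adjusted p = 0.0062; log2 fold change -0.16 with library size alone, adjusted p = 0.46). Alad, the next enzyme after Alas1, rose (0.97, adjusted p = 0.0015), as did Hmox1, which breaks heme down (0.99, adjusted p = 0.0051).

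Of 18 genes for regulators of Cyp2c transcription, 7 were lower, 1 was higher and 10 did not pass, with a median log2 fold change of -0.10 beside 0.03 over all genes tested, of which 23.0% were lower and 25.6% higher. The share of regulators called in either direction was near that of all genes, but its split was not. A larger share of the regulators than of all genes was lower, and a smaller share was higher. These differences in share were not tested. Hnf4a was at 688 ± 72.2 (SD, n = 5) CPM in WT and 230.0 ± 75.8 CPM in Ndrg3 LKO livers (log2 fold change -1.58, SE 0.21, edgeR adjusted p = 0.00013). Cebpa (-1.76), Nr1i3 (-1.73) and Ppara (-1.50) also fell, each with every Ndrg3 LKO liver below every WT liver. Foxa2 was the 1 gene that rose (0.79) and was named after its value was seen. Of 8 genes of growth hormone signalling tested, 4 were lower and 4 did not pass, beside 23.0% of all genes tested called lower. Ghr, the receptor, fell from 486 ± 41.2 to 152 ± 87.2 CPM (log2 fold change -1.68, SE 0.30, edgeR adjusted p = 0.00094), and its targets Socs2 (-2.56) and Igf1 (-0.76; -0.24 with library size alone, adjusted p = 0.18) fell, while Stat5b, the factor that carries the signal, was at -0.15 (adjusted p = 0.49; log2 fold change 0.41 with library size alone). The part of any of these genes in the Cyp2c values was not tested.

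In the pathway of the epoxyeicosatrienoic acids, 6 of 11 listed genes were tested, of which 3 fell, 1 rose and 2 did not pass, beside 23.0% lower and 25.6% higher of all genes tested. Cyp2j5, an epoxygenase of another P450 family, went from 689.7 ± 83.4 to 156 ± 103 CPM (log2 fold change -2.14, SE 0.39, edgeR adjusted p = 0.0011). Ephx2 fell (-0.86, adjusted p = 0.0063; -0.34 with library size alone, adjusted p = 0.15) and Ephx1, the microsomal epoxide hydrolase, rose (0.76, adjusted p = 0.0040). Of 13 genes of bile acid synthesis, 10 fell and 1 rose, beside the same 23.0% lower and 25.6% higher of all genes tested. Their median log2 fold change was -1.12, beside 0.03 over all genes tested. Cyp8b1, which sets the share of cholic acid, lay at -4.79 (SE 1.40, adjusted p = 0.014), with 102 CPM in Ndrg3 LKO replicate 5 and between 0.315 and 3.22 CPM in the other Ndrg3 LKO livers, and at -8.74 without replicate 5. Of 16 other drug-metabolising P450 genes tested, 11 fell and 1 rose, beside these same shares of all genes tested, with a median of -1.03. Cyp2e1 (-3.56) and Cyp2d9 (-2.39) fell, and the gene that rose was Cyp2b9, at 0.0488 to 0.225 CPM in WT, around the floor, and 3.16 to 109 CPM in Ndrg3 LKO livers.

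**Figure D5:**
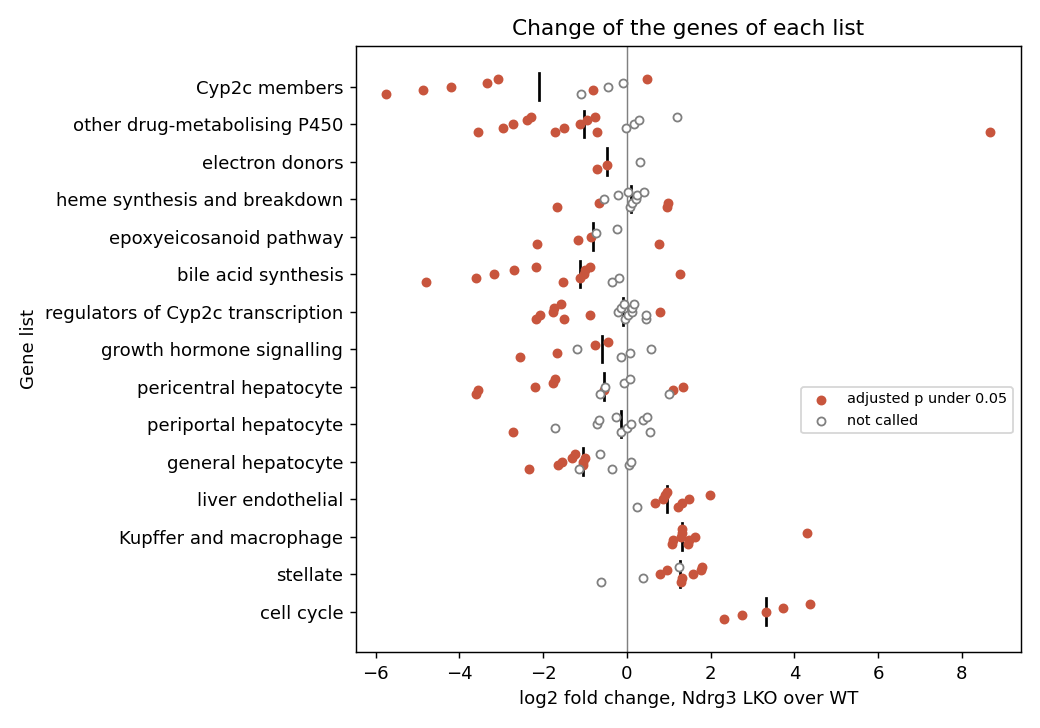
log2 fold change (Ndrg3 LKO over WT) of each gene tested in 15 lists, filled where edgeR's adjusted p was under 0.05, with black lines for list medians. Among the lists drawn, which leave out the other Cyp2c genes, the biliary markers and the red cell list with 1 gene tested, the Cyp2c genes have the lowest median at -2.10, and the medians of the endothelial, Kupffer, stellate and cell cycle lists lie to the right of 0.

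Markers of cell types were read beside these falls. Of 13 general hepatocyte markers 8 were lower, and their summed level was between 176386 and 215877 CPM in WT and, apart from 197189 CPM in replicate 5, between 55956 and 64409 CPM in Ndrg3 LKO livers. Alb was the most abundant. The WT range of Alb was 80485 to 115763 CPM, and Ndrg3 LKO replicate 5 lay within it. Of 13 pericentral markers 6 were lower and 2 higher, beside 23.0% lower and 25.6% higher of all genes tested, and 5 were called without WT replicate 2. The list was led in abundance by Cyp2e1. The 2 called higher, Axin2 (log2 fold change 1.34) and Slc1a4 (1.10), are named after their values were seen, and both had overlapping groups. Slc1a4 lost its call in 13 of the 18 alternative analyses that gave it a p, and Axin2 in 6 of 19. Glul, which marks the cells next to the central vein, went from 1501 ± 142 to 124 ± 21.4 CPM. The summed level of the 13 markers was between 18414 and 20984 CPM in WT and between 3554 and 4790.2 CPM in Ndrg3 LKO livers. Of 11 periportal markers tested 1 was lower, Cyp2f2, and 10 did not pass, with Pck1 the most abundant and sums of 13085 to 19786 CPM in WT and 9791 to 19318 CPM in Ndrg3 LKO livers. With 1 liver left out, between 0 and 6 periportal markers were called, 6 without Ndrg3 LKO replicate 5, and Cyp2f2 lost its call on leaving out any liver but that one (adjusted p between 0.057 and 0.091).

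Markers of other cells were mostly higher in Ndrg3 LKO livers. This held for 8 of 9 endothelial, 9 of 9 Kupffer and macrophage and 7 of 10 stellate markers tested. Over all genes tested, 25.6% were called higher and 23.0% lower. The most abundant genes of these 3 lists were Clec4g, Clec4f and Dcn. The summed levels of the lists in Ndrg3 LKO livers were 162 to 222, 209 to 647 and 257 to 331 CPM, beside 82.1 to 113, 92.8 to 231 and 118 to 184 CPM in WT. Of 6 biliary markers tested 1 was higher and 1 lower (1 called in all without Ndrg3 LKO replicate 1), with Spp1 the most abundant and sums of 50.6 to 83.0 CPM in WT and 58.1 to 231 CPM in Ndrg3 LKO livers. No T and B cell or neutrophil marker passed the filter, with summed levels of at most 9.33 and 13.6 CPM and Cd79b and S100a9 the most abundant. The globin genes Hbb-b1, Hba-a1 and Hba-a2 were listed at 0 in every liver, and Alas2, the most abundant of the red cell list, was lower (log2 fold change -3.19). All 5 cell cycle genes tested were higher, beside 25.6% of all genes tested. The sums of this list were 4.55 to 7.68 CPM in WT and 10.6 to 93.1 CPM in Ndrg3 LKO livers, with Cdk1 the most abundant. The part of these cell types in the Cyp2c values was not tested.

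Within the groups, the deviations of each gene from its group mean were compared over the 10 livers, on log2(CPM + 1). Cyp2c50 and Cyp2c54 deviated together (Pearson r = 0.89), as did Cyp2c54 and Cyp2c70 (0.82) and Cyp2c29 and Cyp2c37 (0.81). Cyp2c67 and Cyp2c37 deviated in opposite directions (-0.55). Outside the family, the 5 genes whose deviations were most like the mean deviation of the 10 Cyp2c genes were Fbn1 (0.98), Cth (0.96), Klc4 (0.95), Nampt (0.95) and Tmem41b (0.94). Without Ndrg3 LKO replicate 5, r was 0.96, 0.91, 0.98, 0.89 and 0.87 in the same order. They were picked as the highest over all genes tested outside the family, which alone gives high values of r. Their changes differed. Fbn1 rose (log2 fold change 1.18, edgeR adjusted p = 0.0096) at low levels, 0.777 CPM in WT and 1.78 CPM in Ndrg3 LKO livers. Klc4 (-0.49) and Nampt (-1.49) fell, and Cth (-0.60, edgeR adjusted p = 0.26) and Tmem41b (-0.02, edgeR adjusted p = 0.92) were not called. These are descriptions over 10 livers, in which each value of a liver shares its library and scaling, and the replicate 5 livers hold the high Cyp2c40 values.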

How the data were processed

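Liver RNA of 5 WT and 5 Ndrg3 LKO mice was sequenced from stranded mRNA libraries as paired reads of 100 bases, with 1 library per liver. The authors aligned reads with STAR on mm9, counted them per gene with STAR's own counting option, which takes reads mapped to 1 place, and deposited these counts, as whole numbers that are not normalized. The methods of the study and the submitters' processing notes give different versions of STAR (2.7.3a in the notes), and the annotation and strand setting of the counting are not given in the sources used here. WT mice were littermates of Ndrg3 LKO mice, the litter of each mouse is not given in the sources used here, and p-values measure the spread between these livers. Of 24052 symbols, 6306 had 0 counts in every liver.

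Counts were analysed with R 4.3.3 and edgeR 4.0.16. Genes reaching 1 CPM in 5 or more livers (4 when a liver was left out) were tested with TMM scaling, the quasi-likelihood test and Benjamini-Hochberg adjustment at 0.05, and SE was taken as the absolute log2 change over the root of its F statistic. Alternatives were DESeq2 1.42.0, limma 3.58.1 on log2(CPM + pseudocount) with 1, 0.1 and 5, median-of-ratios and library-size scaling, no filter, a mean CPM of at least 5, the replicate number as a block, and each liver left out. Pairs of genes were compared by the log2 ratio of counts plus 0.5 with exact permutation tests. The tests were checked on simulated counts. The 20 pairs of livers within groups differed by more than sampling noise (chi-square per degree of freedom from 25.7 to 450.3). The floor of 3 counts is a setting, and SD and SE include the spread between livers.

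Gene positions come from GENCODE on NCBIM37, and upstream sequences are from RefSeq on GRCm38.p6. The genes, lists and tests were chosen with earlier results of these data known. Named genes are the 10 Cyp2c genes, Ndrg3, up to 6 genes per list past the threshold whose groups do not overlap, by size of change, the most abundant gene of each cell type list, and the 5 genes most like the Cyp2c genes. Cyp2c69, Foxa2, Stat5b, Cyb5b, the neighbouring genes and the Y-linked and Xist counts were added after their values were seen. Some genes that these rules name are not reported here.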

Additional observations from a re-analysis of the deposited data

Results flagged for a closer look

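In a group of 5 livers, a highest or lowest value was picked out where its gap to the next liver exceeded 0.71 of the range of the group (Dixon's 95% critical value). Among 20 groups of the 10 Cyp2c genes, 4 values were picked out, where chance gives about 1 in 20 groups. Cyp2c40 was far above the rest of its group in WT replicate 5 (85.2 CPM, a gap of 0.770 of the range) and in Ndrg3 LKO replicate 5 (147 CPM, 0.870 of the range). Cyp2c50 at 965 CPM (0.779 of the range) and Cyp2c54 at 463 CPM (0.820 of the range) were far above the rest in WT replicate 1.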

How the results depend on the processing

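Cyp2c37, Cyp2c50, Cyp2c54, Cyp2c67, Cyp2c70 and Ndrg3 kept their direction and their call under all 19 alternatives, each liver left out included. Library size alone shifted the median change over all genes (log2) from 0.03 to 0.56. It turned the calls from 2865 higher and 2578 lower (52.6% higher) to 5821 higher and 1010 lower (85.2% higher). Against that median, Cyp2c29 lay at -0.86 and Cyp2c68 at 0.44, beside -0.84 and 0.46 with TMM. With library size alone Cyp2c29 was no longer called (-0.30), nor were Cyb5r3, Fech, Igf1, Fabp1 and Ephx2, and Cyp2c38 (0.076), Cyp2c40 (0.19), Por (0.036), Jak2 (0.089) and Gulo (0.0067) changed sign. Cyp2c39 was called with DESeq2 (-1.12) and with limma at pseudocounts of 0.1 (-1.19) and 1 (-0.63), and Cyp2c68 was not called without the filter on low counts (0.45). Cyp2c69 changed sign with limma at 0.1 (-0.14), 1 (-0.12) and 5 (-0.0618) and with the replicate block (-0.14). Per kb of exon, shares moved in WT for Cyp2c37 (12.7%), Cyp2c38 (0.438%), Cyp2c50 (13.4%), Cyp2c67 (10.3%) and Cyp2c68 (9.69%), and in Ndrg3 LKO livers for Cyp2c38 (1.02%). With 1 liver left out, the log2 fold changes ranged from -1.46 to -0.87 for Cyp2c39, from -1.55 to 0.29 for Cyp2c40, from 0.38 to 0.55 for Cyp2c68 and from -0.75 to 0.58 for Cyp2c69. Between 6 and 8 Cyp2c genes were then called, of 4703 to 6360 genes called in all, and 31 to 35 pairs of Cyp2c genes. Differences of pairs that changed sign then ranged from -0.35 to 0.59 (Cyp2c29 against Cyp2c40), from -0.0053 to 1.004 (Cyp2c38 against Cyp2c40) and from -1.122 to 0.35 (Cyp2c39 against Cyp2c40). Same-numbered livers did not deviate together (correlations from -0.36 to 0.04), so the numbers were not taken as pairs. With them as a block 4412 genes and 7 Cyp2c genes were called, and 0 pairs of Cyp2c genes, because 5 differences cannot give an exact p under 0.062 and 32 of 45 pairs reached it. Depth limits Cyp2c39, with 8 to 63 counts a liver. The causes of these shifts were not tested.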
